A study of Mus musculus with 18 samples.

Results

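MHC class I molecules show peptides from inside a cell to CD8 T cells, and the 10 genes described here make the molecules and the peptides they carry. They were taken by gene name from a table of 16248 genes measured in endothelial cells (ECs), which form the inner wall of blood vessels. The set holds 2 classical heavy chains (H2-K1 and H2-D1), the light chain B2m, the peptide transporter genes Tap1 and Tap2, the loading factor Tapbp, the immunoproteasome subunits Psmb8, Psmb9 and Psmb10, and the transactivator Nlrc5. All 10 were listed in the table and all 10 passed the filter on low values, at least 1 FPKM in at least 3 libraries, which 13983 genes of the table passed. FPKM counts fragments per kilobase of gene length after scaling between libraries, so levels of different genes are compared per length. The scaling of the deposited values did not follow total reads alone. In a gene of 1 kilobase, 1 read stood for 0.0847 FPKM in the first normal PBS library (10142641 reads). It stood for 0.120 FPKM in the first implanted cGAMP library (11232852 reads).

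The ECs came from female mice of the FVB strain. Wild-type mice gave the normal mammary fat pad, and MMTV-PyMT mice gave tumours that arise on their own, because a viral promoter drives the polyoma middle T oncogene in their mammary epithelium. Implanted tumours grew from cultured MMTV-PyMT tumour cells that were placed with Matrigel in the fat pad of wild-type FVB mice. Each tissue was injected with PBS or with 3'3'cGAMP (cGAMP), a cyclic dinucleotide that activates the innate sensor STING, and was taken 3 h later. Ages stated for these models were 9 weeks for treated MMTV-PyMT mice and 8 to 9 weeks for hosts at implantation, and none was stated for the sequenced mice themselves. All 6 groups shared the strain, the injection and the sort of live CD45-negative, CD31-positive cells, and each had 3 libraries, 18 in all. Each group held 3 mice from 3 independent experiments, and which experiment a library belonged to was not stated.

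In the class I pathway, the proteasome cuts cytosolic proteins into peptides, the TAP transporter moves them into the endoplasmic reticulum, and tapasin helps to load them onto a heavy chain that is paired with beta-2-microglobulin. Interferons exchange the catalytic proteasome subunits for their immunoproteasome relatives and raise most genes of the pathway. NLRC5 is a transactivator that acts at class I promoters together with factors bound to conserved elements named the X and Y boxes.

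Recovered reads per library ranged from 9068064 to 12058796. Reads of the members ranged from 73 for Nlrc5 in its lowest library to 59395 for H2-D1 in its highest. All 7 endothelial markers were present, and their summed level ranged from 611 to 1606 FPKM. Under PBS it was 830 to 951 in the normal fat pad, 611 to 756 in MMTV-PyMT and 935 to 1173 in implanted tumours. The leukocyte marker sum lay between 21.3 and 77.3 FPKM in 17 libraries and reached 264 in the second implanted cGAMP library, where Ptprc, the gene of the sorting marker CD45, measured 9.24 FPKM. Ptprc was as high, 9.73 FPKM, in the first normal cGAMP library, against 0.903 and 0.985 in the other normal cGAMP libraries. In that library the T cell gene Cd3e measured 7.64 and the B cell gene Cd79a 9.35 FPKM, each the highest of its group. The epithelial marker sum was 893 to 966 FPKM in MMTV-PyMT tumours under PBS, 616 to 866 under cGAMP, and 260 to 568 in the other 4 groups, and Epcam ranged from 54.2 to 215 FPKM over all libraries. Under PBS the epithelial sum was above the endothelial sum in every MMTV-PyMT library, and below it in every library of the other tissues. Markers of other cell types were thus present in every sorted library, while Ptprc was below 1 FPKM in 10 of 18. The sum of mural and fibroblast markers was 839 to 951 FPKM in the normal fat pad under PBS and 333 to 448 in both tumours under PBS, and reached 878 in an implanted cGAMP library.

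The class I locus differs between mouse strains. FVB mice carry another H2 haplotype than the C57BL/6J reference to which reads were aligned, so levels of H2-K1 and H2-D1 depend on how FVB reads matched the reference, and this was not tested. Of the 75-base words in the reference transcripts of H2-D1, 5.40% also occurred in transcripts of other genes, mostly of the H2-Q and H2-T families. For H2-K1 this share was 3.10%, for Tapbp 1.10%, and for the other 7 members 0%. Reads that fit several genes can be split or dropped in counting. Of the 10 genes, 7 lie on chromosome 17, 6 of them close together (GRCm38, GENCODE M21). In order along the chromosome these are Tapbp at chr17:33915899-33929292, H2-K1 at chr17:33996017-34000347, Psmb9 at chr17:34181987-34187764, Tap1 at chr17:34187553-34197225, Psmb8 at chr17:34197721-34201454 and Tap2 at chr17:34203527-34216321. H2-D1 lies further along at chr17:35262730-35267499. B2m is at chr2:122147686-122153083, Nlrc5 at chr8:94434356-94527272 and Psmb10 at chr8:105935735-105938444. Only H2-K1 and H2-D1 overlapped no other annotated gene, and the sources do not say if reads were counted by strand.

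Promoter windows of 300 bases were available from RefSeq (GRCm38.p6) for 8 members, and not for Tap2 and Nlrc5. The 4 windows printed here show the shared order of exact motif matches in the heavy chain promoters, the different one in B2m, and the promoter that Tap1 shares with Psmb9. Each runs from 250 bases before the annotated start to 30 bases after it, and H2-K1 has a further annotated start nearby. Capitals mark every match to one of 4 motifs, searched on both strands: the NF-kB motif, the X2 box TGACGC, the Y box CCAAT and the interferon regulatory factor (IRF) element (GAAA, any 2 bases, GAAA). They lie at chr17:34000318-34000597 on the minus strand for H2-K1, and on the plus strand at chr17:35262844-35263123 for H2-D1, chr2:122147437-122147716 for B2m and chr17:34187306-34187585 for Tap1.
H2-K1: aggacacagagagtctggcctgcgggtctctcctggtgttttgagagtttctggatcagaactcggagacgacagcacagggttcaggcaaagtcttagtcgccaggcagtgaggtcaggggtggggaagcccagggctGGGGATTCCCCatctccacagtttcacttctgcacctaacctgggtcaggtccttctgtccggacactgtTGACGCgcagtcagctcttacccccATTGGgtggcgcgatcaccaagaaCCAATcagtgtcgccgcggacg
H2-D1: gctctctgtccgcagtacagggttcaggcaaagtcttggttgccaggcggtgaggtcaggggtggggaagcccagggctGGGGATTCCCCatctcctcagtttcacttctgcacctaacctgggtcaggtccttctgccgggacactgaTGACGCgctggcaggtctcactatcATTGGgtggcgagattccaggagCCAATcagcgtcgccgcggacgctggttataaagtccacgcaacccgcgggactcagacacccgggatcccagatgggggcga
B2m: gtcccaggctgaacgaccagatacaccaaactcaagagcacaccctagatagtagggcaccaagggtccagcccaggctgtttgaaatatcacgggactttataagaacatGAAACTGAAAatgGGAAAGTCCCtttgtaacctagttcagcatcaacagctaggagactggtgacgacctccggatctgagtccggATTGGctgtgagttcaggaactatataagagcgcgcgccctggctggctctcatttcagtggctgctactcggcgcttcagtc
Tap1: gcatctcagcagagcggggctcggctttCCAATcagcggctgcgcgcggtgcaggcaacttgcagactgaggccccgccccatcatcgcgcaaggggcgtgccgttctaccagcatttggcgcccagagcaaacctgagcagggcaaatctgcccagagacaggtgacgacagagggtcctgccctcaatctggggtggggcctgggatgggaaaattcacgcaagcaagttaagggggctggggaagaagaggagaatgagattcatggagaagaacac

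H2-K1 and H2-D1 held the motifs in one order: NF-kB, X2 box, then 2 Y boxes, 1 on each strand. B2m held an IRF element, an NF-kB motif on the other strand and 1 Y box. The Tap1 window held 1 Y box and none of the other motifs. That Y box stands just before the start of Psmb9, which is read in the opposite direction from a start 226 bases away, so that the 300-base windows of Tap1 and Psmb9 share 275 bases. RefSeq promoter windows of the same length covered 27025 genes. Of these genes, 3.99% held the IRF element, 41.1% the Y box, 8.37% the X2 box and 9.55% the NF-kB motif. A gene was counted if any of its windows held the motif. The 8 members with a window held these motifs in 1, 6, 2 and 3 cases. A match to these letters is a description of the reference and not evidence of binding. Variants of the motifs were not searched, so a window without a match may still hold a variant of that element.

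cGAMP raised most of the set within 3 h, and all of it in both tumours. In normal ECs, 6 of 10 genes were higher under cGAMP, where 13.7% of all tested genes were called higher. Without the first normal cGAMP library, in which Ptprc was high, 5 were called, all but Psmb8 of the 6. In MMTV-PyMT tumour ECs all 10 were higher, against 7.42% of tested genes, and in implanted tumour ECs all 10 were higher, against 20.3%. Calls rest on limma with Benjamini-Hochberg adjustment over all 13983 tested genes, at an adjusted p under 0.05. With a change of at least 2-fold as well, 2 genes were called in normal ECs, 6 in MMTV-PyMT and 6 in implanted tumour ECs, where 3.02%, 2.49% and 6.13% of tested genes were called. The median change of the 10 genes on the log2(FPKM + 1) scale was 0.43, 1.04 and 1.15, and over all tested genes -0.04, -0.04 and -0.01. Nlrc5 and Tap1 had the largest change of the set in every tissue. The pseudocount of 1 understates the change of low genes, which touches Nlrc5 most. In bulk RNA, fewer cells of a type and less RNA per cell cannot be told apart.

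**Figure D1:**
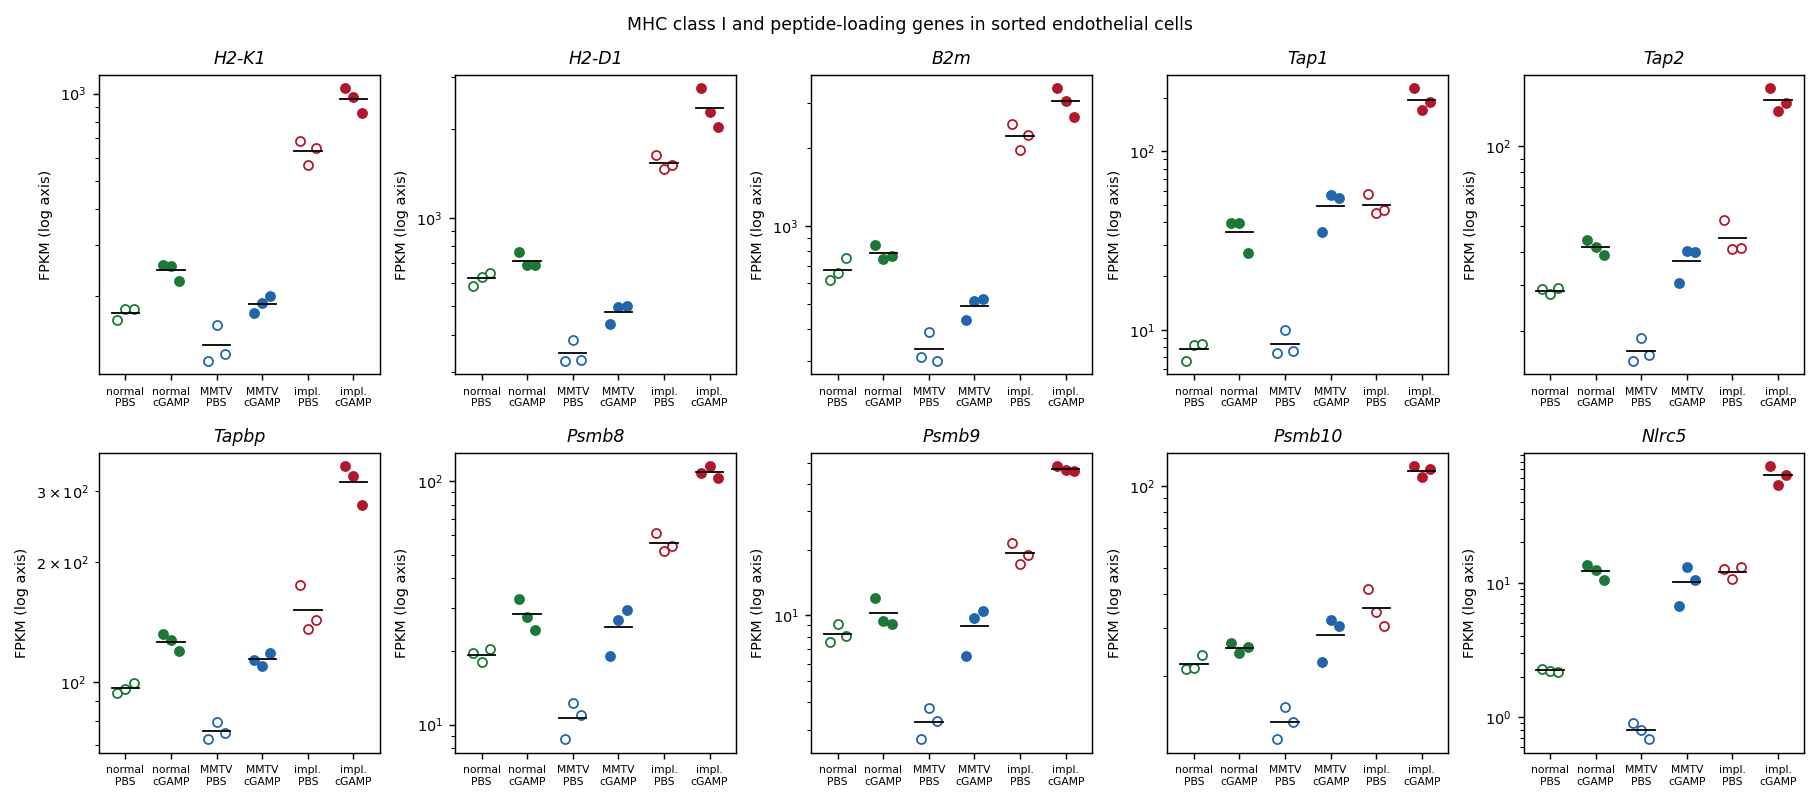
FPKM of the 10 genes in each of the 18 libraries, on log axes with a separate scale for each gene (impl. = implanted). Open circles are PBS and filled circles cGAMP, 3 libraries a group, and bars are group means. Implanted cGAMP libraries were the highest for each gene, and MMTV-PyMT PBS libraries had the lowest mean for each gene except Tap1.

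The classical heavy chains rose modestly. H2-K1 measured 165, 179.7 and 179.6 FPKM in normal ECs under PBS and 255, 253 and 225 under cGAMP. In ECs of MMTV-PyMT tumours it measured 119, 158 and 126 under PBS and 175, 188 and 200.1 under cGAMP. In implanted tumour ECs the values were 684, 565 and 646 under PBS and 1043, 972 and 854 under cGAMP. In all 3 tissues every cGAMP library was above every PBS library, and even the lowest implanted PBS library was above the highest library of the other tissues. The log2 change was 0.48 ± 0.11 (SE) in normal ECs, 0.49 ± 0.11 in MMTV-PyMT and 0.60 ± 0.11 in implanted tumour ECs (limma, adjusted p = 0.00434, 0.0103 and 0.000570).

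H2-D1 was the more abundant heavy chain per length in every library. It measured 586, 631 and 651 FPKM under PBS and 763, 689 and 692 under cGAMP in normal ECs. MMTV-PyMT tumour ECs had 327, 385 and 328 under PBS, and under cGAMP 436, 499 and 502. Implanted tumour ECs had 1631, 1467 and 1505 under PBS and 2754, 2281 and 2035 under cGAMP. The cGAMP libraries were above the PBS libraries in each tissue, by the least in normal ECs. There the change of 0.20 ± 0.12 did not pass (limma adjusted p = 0.208, 95% interval -0.05 to 0.44), while the changes of 0.47 ± 0.12 in MMTV-PyMT and 0.61 ± 0.12 in implanted tumour ECs did (limma adjusted p = 0.0146 and 0.000578).

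B2m, the light chain that every class I heavy chain needs, reached the highest FPKM of any member, in implanted tumours. It measured 615, 656 and 751 FPKM in normal ECs under PBS and 843, 743 and 761 under cGAMP, and these groups overlapped. MMTV-PyMT tumour ECs had 309.8, 387 and 300.5 under PBS and 432, 511 and 521 under cGAMP, without overlap. Implanted tumour ECs had 2483, 1970.4 and 2245 under PBS and 3416, 3046 and 2648 under cGAMP, again without overlap. The change was 0.22 ± 0.14 in normal ECs and did not pass (limma adjusted p = 0.238, 95% interval -0.07 to 0.50). It was 0.56 ± 0.14 in MMTV-PyMT and 0.44 ± 0.14 in implanted tumour ECs (limma adjusted p = 0.0129 and 0.0165).

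The tumour calls of these 3 chains were the least stable of the set. Among implanted tumour ECs, B2m was no longer called after scaling by total reads (0.12), after quantile normalization (0.22) or in a fit of the implanted libraries alone. It was also lost without the second PBS library (0.36) or the first cGAMP library (0.35). H2-K1 was lost there after quantile normalization (0.08), and H2-D1 in the fit of the implanted libraries alone. The calls in MMTV-PyMT tumours also rested on single libraries. H2-K1 was lost without PBS replicate 3 (0.44) or cGAMP replicate 3 (0.44), and B2m without PBS replicate 3 (0.49), cGAMP replicate 2 (0.52) or cGAMP replicate 3 (0.51). H2-D1 was lost without PBS replicate 1 or 3 or cGAMP replicate 2 or 3 (0.43 to 0.44), and after quantile normalization (0.31). All of these changes remained positive.

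Peptide transport rose more, and Tap1 above all. Tap1 and Tap2 encode the subunits of the TAP transporter. Tap1 measured 6.71, 8.19 and 8.34 FPKM in normal ECs under PBS and 39.7, 39.8 and 27.1 under cGAMP, 4.59-fold higher by group means. MMTV-PyMT tumour ECs had 7.40, 9.91 and 7.58 under PBS and 35.3, 57.0 and 55.0 under cGAMP, 5.92-fold higher. In implanted tumour ECs it measured 58.0, 45.3 and 46.9 under PBS and 226, 169 and 188 under cGAMP, 3.89-fold higher. The groups were far apart in all 3 tissues. The log2 change was 2.05 ± 0.19, 2.41 ± 0.19 and 1.94 ± 0.19 (limma adjusted p = 1.00e-06, 1.16e-07 and 5.87e-07), and no difference between tissues passed.

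Tap2 started higher than Tap1 in normal and MMTV-PyMT ECs and rose less there. It measured 28.8, 27.6 and 29.0 FPKM under PBS and 44.2, 41.7 and 38.8 under cGAMP in normal ECs. MMTV-PyMT tumour ECs had 15.5, 18.8 and 16.3 under PBS and 30.5, 40.3 and 40.1 under cGAMP. Implanted tumour ECs had 52.7, 40.9 and 41.3 under PBS and 166, 137 and 147 under cGAMP. In each tissue the cGAMP and PBS libraries did not overlap, and the implanted cGAMP libraries were more than 3 times as high as any normal library. The changes were 0.53 ± 0.12, 1.08 ± 0.12 and 1.72 ± 0.12 (limma adjusted p = 0.00329, 8.02e-06 and 1.40e-08). The implanted change exceeded the normal one by 1.19 ± 0.17 (limma adjusted p = 0.000185).

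The balance of the transporter subunits was compared within each library, where scaling between libraries has no part. The log2 ratio of Tap1 to Tap2 was -2.10, -1.75 and -1.80 in normal ECs under PBS and -0.15, -0.07 and -0.52 under cGAMP. It was -1.07, -0.93 and -1.10 in MMTV-PyMT tumour ECs under PBS and 0.21, 0.50 and 0.46 under cGAMP. In implanted tumour ECs it was 0.14, 0.15 and 0.18 under PBS and 0.44, 0.31 and 0.36 under cGAMP. By FPKM, Tap1 thus exceeded Tap2 in implanted tumour ECs already under PBS, and in MMTV-PyMT tumour ECs only under cGAMP. FPKM divides by annotated exon length, 5476 bases for Tap1 and 3781 for Tap2. In reads, Tap1 also exceeded Tap2 in normal ECs under cGAMP (2493, 2450 and 1611 against 1915, 1774 and 1594). Over the 3 tissues the ratio was 1.09 higher under cGAMP (exact permutation test stratified by tissue, two-sided, p = 0.00025, adjusted p = 0.000625 over 5 ratios). This is the smallest p that the 8000 arrangements can give. Within 1 tissue, an exact permutation of 3 libraries against 3 cannot go below p = 0.1.

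Tapbp, which encodes tapasin, was abundant in every group. It measured 93.9, 96.5 and 99.7 FPKM in normal ECs under PBS and 132, 127 and 119 under cGAMP. It measured 72.3, 79.6 and 74.8 under PBS and 114, 110.2 and 119 under cGAMP in MMTV-PyMT tumour ECs, and 175, 136 and 143 under PBS and 346, 327 and 278 under cGAMP in implanted tumour ECs. Groups were apart in each tissue, and the rise was steepest in implanted tumours. The log2 changes were 0.38 ± 0.10, 0.59 ± 0.10 and 1.06 ± 0.10 (limma adjusted p = 0.00692, 0.000575 and 2.94e-07), and the implanted change exceeded the normal one by 0.68 ± 0.14 (limma adjusted p = 0.00264).

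**Figure D2:**
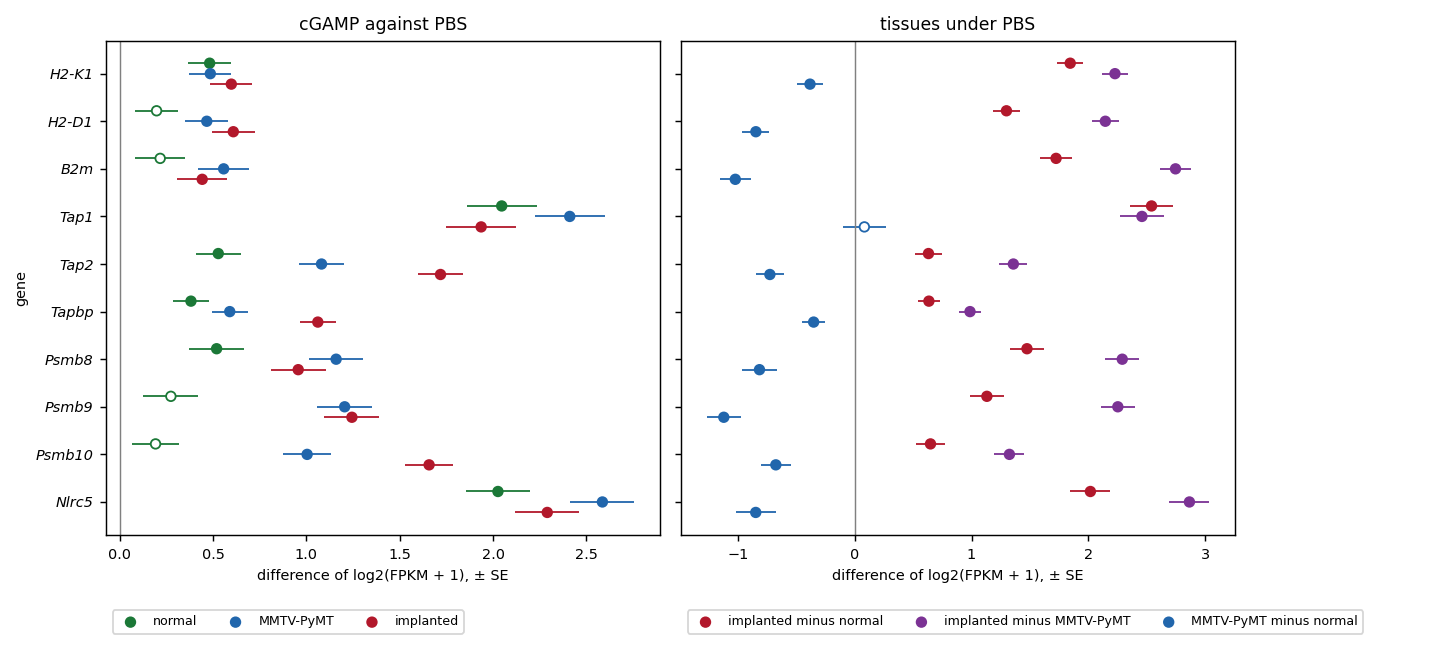
Differences of log2(FPKM + 1) with their standard errors for the 10 genes. Left, cGAMP minus PBS in the 3 tissues; right, differences between tissues under PBS. Filled points passed an adjusted p of 0.05 (limma). Nlrc5 and Tap1 lie near or above 2 in every tissue on the left, and in normal ECs 4 genes are open.

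The immunoproteasome subunits rose in both tumours, and only Psmb8 was called in normal ECs. Psmb8 encodes beta5i, the subunit with chymotrypsin-like activity. It measured 19.7, 18.1 and 20.4 FPKM in normal ECs under PBS and 32.9, 27.7 and 24.5 under cGAMP. MMTV-PyMT tumour ECs had 8.73, 12.3 and 10.9 under PBS and 19.1, 26.9 and 29.7 under cGAMP, and implanted tumour ECs 61.2, 51.7 and 54.4 under PBS and 108, 115 and 103 under cGAMP. The groups did not overlap in any tissue. The changes were 0.52 ± 0.15, 1.16 ± 0.15 and 0.96 ± 0.15 (limma adjusted p = 0.0131, 3.74e-05 and 7.83e-05). The call in normal ECs was lost without the second PBS library (0.47) or the first cGAMP library (0.41).

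Psmb9 encodes beta1i and had the lowest FPKM of the 3 subunits. Its annotated exon length was 3660 bases, against 3381 for Psmb8 and 1705 for Psmb10. In implanted tumour ECs under PBS it had more reads than Psmb10 (737, 560 and 685 against 666, 518 and 516). It measured 7.54, 9.15 and 8.02 FPKM in normal ECs under PBS and 12.1, 9.40 and 9.18 under cGAMP. MMTV-PyMT tumours had 2.72, 3.78 and 3.27 under PBS and 6.50, 9.75 and 10.5 under cGAMP, and implanted tumours 21.6, 17.3 and 18.9 under PBS and 48.1, 46.6 and 45.7 under cGAMP. The normal groups were barely apart, and the tumour groups were clearly so. The change in normal ECs was 0.27 ± 0.15 and did not pass (limma adjusted p = 0.169, 95% interval -0.04 to 0.59). The changes in MMTV-PyMT and implanted tumour ECs were 1.20 ± 0.15 and 1.24 ± 0.15 (limma adjusted p = 2.58e-05 and 5.59e-06).

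Psmb10, which encodes beta2i, had the largest difference of response in the set, 1.46 ± 0.18 between implanted and normal ECs (limma adjusted p = 5.70e-05). It measured 21.3, 21.5 and 23.8 FPKM in normal ECs under PBS and 26.5, 24.3 and 25.6 under cGAMP. MMTV-PyMT tumours had 11.8, 15.4 and 13.6 under PBS and 22.6, 32.1 and 30.5 under cGAMP, and implanted tumours 41.8, 34.3 and 30.6 under PBS and 118, 108 and 115 under cGAMP. All implanted cGAMP libraries exceeded 100 FPKM, a level that no other library came near. The change was 0.19 ± 0.13 in normal ECs (limma adjusted p = 0.273, 95% interval -0.08 to 0.46), 1.0 ± 0.13 in MMTV-PyMT and 1.66 ± 0.13 in implanted tumour ECs (limma adjusted p = 4.25e-05 and 4.37e-08).

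Each immunoproteasome subunit takes the place of a constitutive relative, Psmb5 for Psmb8, Psmb6 for Psmb9 and Psmb7 for Psmb10. The share of each subunit in the summed FPKM of its pair was therefore compared within libraries. The Psmb8 share was 64.7, 62.8 and 63.8% in normal ECs under PBS and 76.0, 72.6 and 77.4% under cGAMP. It was 33.0, 41.2 and 34.1% under PBS and 52.9, 61.9 and 59.1% under cGAMP in MMTV-PyMT, and 75.0, 69.6 and 73.5% under PBS and 88.8, 84.7 and 88.2% under cGAMP in implanted tumour ECs. The share was higher in every cGAMP library than in every PBS library of its tissue, by a mean of 16.0 percentage points (exact permutation test stratified by tissue, two-sided, p = 0.00025, adjusted p = 0.000625).

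The Psmb9 share was the smallest of the 3 in FPKM, and the size of a share depends on the annotated exon lengths of its pair. It was 22.4, 26.4 and 23.9% under PBS and 31.5, 25.8 and 27.3% under cGAMP in normal ECs, where the groups overlapped. It was 8.15, 9.25 and 7.57% under PBS and 14.5, 23.9 and 22% under cGAMP in MMTV-PyMT tumour ECs, and 36.0, 32.8 and 37.3% under PBS and 59.2, 54.0 and 60.3% under cGAMP in implanted tumour ECs. The mean rise was 12.7 points (exact permutation test, p = 0.0005, adjusted p = 0.000833). Under PBS, every MMTV-PyMT library was below every library of the other tissues for all 3 shares.

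The Psmb10 share did not rise in normal ECs. It was 67.8, 67.9 and 68.3% there under PBS and 67.3, 65.0 and 68.7% under cGAMP, a mean difference of -1.03 points, and the groups overlapped. It was 46.4, 49.1 and 47.1% under PBS and 60.5, 69.4 and 66.4% under cGAMP in MMTV-PyMT, and 69.7, 68.7 and 67.1% under PBS and 86.4, 83.9 and 87.2% under cGAMP in implanted tumour ECs. In both tumours the groups were apart, by 17.9 and 17.3 points. Over the 3 tissues the mean rise was 11.4 points (exact permutation test, p = 0.004, adjusted p = 0.005).

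**Figure D3:**
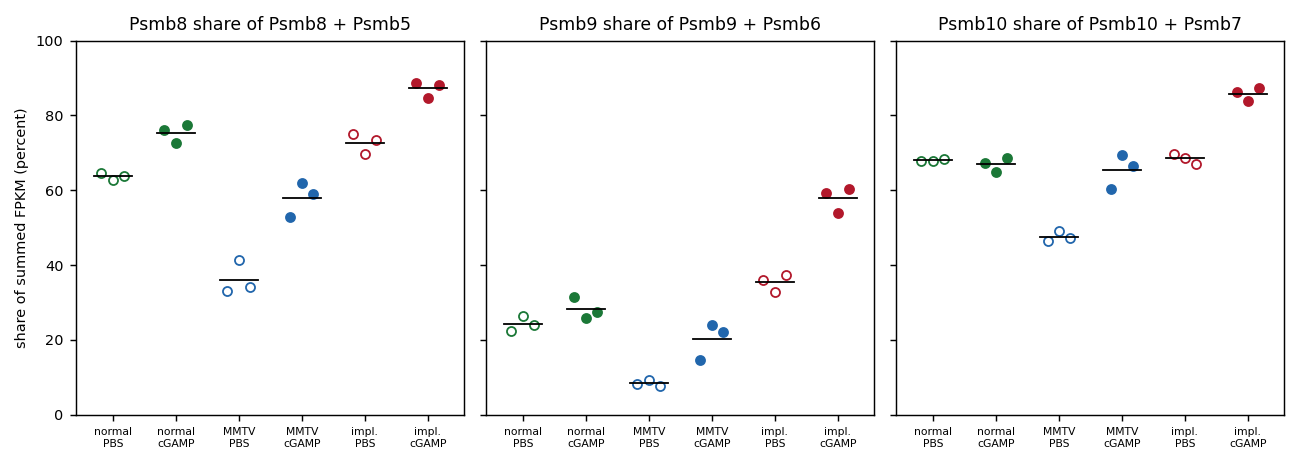
Share of each immunoproteasome subunit in the summed FPKM of its pair with the constitutive subunit, in percent, for each library (impl. = implanted). Open circles are PBS, filled circles cGAMP, and bars are means of 3 libraries. MMTV-PyMT PBS libraries were lowest in each panel, and the Psmb10 share overlapped between treatments in normal ECs alone.

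Nlrc5 is the transactivator of the class I genes, and under PBS it had the lowest FPKM of the set in every tissue. It measured 2.29, 2.21 and 2.17 FPKM in normal ECs under PBS and 13.6, 12.5 and 10.4 under cGAMP, 5.48-fold higher by group means. MMTV-PyMT tumour ECs had 0.905, 0.793 and 0.686 under PBS and 6.70, 13.1 and 10.4 under cGAMP, 12.7-fold higher. In implanted tumour ECs it measured 12.7, 10.6 and 13.0 under PBS and 73.6, 53.2 and 63.6 under cGAMP, 5.24-fold higher. Implanted PBS libraries stood at about the level that normal and MMTV-PyMT ECs reached under cGAMP. The log2 changes were 2.03 ± 0.17, 2.59 ± 0.17 and 2.29 ± 0.17 (limma adjusted p = 4.17e-07, 1.79e-08 and 3.05e-08). Whether the MMTV-PyMT change exceeded the others depended on the scale: at a pseudocount of 1 its excess over the normal change was 0.56 ± 0.24 (limma adjusted p = 0.169), and the implanted minus the MMTV-PyMT change was -0.30 ± 0.24 (limma adjusted p = 0.504). At a pseudocount of 0.1 these were 1.07 and -1.09 (limma adjusted p = 0.0258 and 0.0163).

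Tap1 and Psmb9 share their promoter region, printed above, and their levels were set against each other. In normal ECs the log2 ratio of Tap1 to Psmb9 was -0.17, -0.16 and 0.06 under PBS and 1.72, 2.08 and 1.56 under cGAMP. It was 1.45, 1.39 and 1.21 under PBS and 2.44, 2.55 and 2.39 under cGAMP in MMTV-PyMT tumour ECs, and 1.43, 1.39 and 1.31 under PBS and 2.23, 1.86 and 2.04 under cGAMP in implanted tumour ECs. The ratio was higher in every cGAMP library than in the PBS libraries of its tissue, by a mean of 1.22. This ratio was chosen after its values were seen and is given without a test. The annotated genes overlap at their starts on opposite strands. 

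The balance of the light chain and the heavy chains was compared in the same way. The sign of its mean difference was not the same in each tissue, and a difference between tissues was not tested. The log2 ratio of B2m to the summed heavy chains differed by -0.04 between cGAMP and PBS over the 3 tissues and did not pass (exact permutation test stratified by tissue, adjusted p = 0.266). By tissue the difference was -0.05 in the normal fat pad, 0.08 in MMTV-PyMT tumours and -0.16 in implanted tumours (exact permutation test within a tissue, p = 0.6, 0.2 and 0.1). The ratio in implanted tumour ECs was 0.10, -0.04 and 0.06 under PBS and -0.15, -0.09 and -0.13 under cGAMP. The implanted groups did not overlap, and their p of 0.1 is the smallest that an exact permutation test of 3 libraries against 3 can give. PBS and cGAMP libraries overlapped in normal ECs and in MMTV-PyMT tumour ECs.

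The size of the response differed between tissues for part of the set. The implanted change exceeded the normal change for Tap2, Tapbp, Psmb9 and Psmb10, 4 of 10 genes against 12.5% of tested genes. The MMTV-PyMT change exceeded the normal change for Psmb9 (0.93 ± 0.21) and Psmb10 (0.81 ± 0.18), 2 of 10 against 5.48% (limma adjusted p = 0.0129 and 0.0129). The comparisons with the normal fat pad share its libraries, and those with implanted tumours share the implanted libraries. For the other genes the differences did not pass. Between implanted and normal ECs, 95% intervals were for example -0.22 to 0.46 for H2-K1 and -0.67 to 0.45 for Tap1. Some intervals, which are not adjusted for many tests, lay wholly on the positive side. Such was 0.06 to 0.76 for H2-D1 between implanted and normal ECs. Between MMTV-PyMT and normal ECs these were 0.20 to 0.91 for Tap2, 0.20 to 1.08 for Psmb8 and 0.04 to 1.07 for Nlrc5. Of 26 alternatives, 9 called that difference for Tap2, and 3 for Psmb8. After quantile normalization 2 of the 4 calls between implanted and normal ECs were left, Tap2 and Psmb10.

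The implanted change exceeded the MMTV-PyMT change for Tap2 (0.64 ± 0.17), Tapbp (0.47 ± 0.14) and Psmb10 (0.65 ± 0.18), 3 of 10 genes against 7.34% (limma adjusted p = 0.0218, 0.0347 and 0.0279). These 3 calls were fragile. None was left after scaling by total reads, in a fit of these 4 groups alone, or without implanted PBS replicate 2 or 3, implanted cGAMP replicate 1 or MMTV-PyMT PBS replicate 2. With voom, or without MMTV-PyMT PBS replicate 3 or cGAMP replicate 1, 1 was left, Tap2. The sizes moved less than the calls. In the fit of the 4 groups the differences were 0.64 for Tap2, 0.47 for Tapbp and 0.65 for Psmb10, as in the fit of all groups. Without single libraries, where their calls were lost, they were 0.56 to 0.58 for Tap2, 0.40 to 0.50 for Tapbp and 0.50 to 0.65 for Psmb10. Scaling by total reads gave 0.45, 0.29 and 0.46. Quantile normalization left none of the 3 (0.23, 0.09 and 0.23) and called Tap1 lower (-0.94). The 3 differences remained positive throughout.

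Under PBS, the tissues already differed in the whole set. All 10 genes were higher in implanted tumour ECs than in normal ECs, against 25% of tested genes, and all 10 were higher than in MMTV-PyMT tumour ECs, against 20.8%. In MMTV-PyMT tumour ECs 9 of 10 were lower than in normal ECs, against 26.6%. Between implanted and normal ECs the log2 difference ran from 0.63 for Tap2 to 2.54 for Tap1, and between implanted and MMTV-PyMT tumour ECs from 0.99 for Tapbp to 2.87 for Nlrc5. MMTV-PyMT was lower than normal by the most for Psmb9 (-1.12 ± 0.15) and B2m (-1.02 ± 0.14), and by the least for Tapbp (-0.35 ± 0.10; limma adjusted p = 1.06e-05, 1.13e-05 and 0.00552). Tap1 was the exception, at 0.08 ± 0.19, with overlapping groups (limma adjusted p = 0.728, 95% interval -0.31 to 0.48). These counts were 10, 10 and 9 with each library left out in turn.

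Other cell types moved with some of these comparisons. Under PBS, MMTV-PyMT tumour ECs were lower than normal ECs in 4 of 7 endothelial markers, 5 of 8 mural and fibroblast markers, 3 of 9 leukocyte markers and 1 of 7 epithelial markers, against the 26.6% of tested genes given above. They were higher in 4 epithelial and 1 mural and fibroblast marker, against 29.8%. Implanted tumour ECs were higher than MMTV-PyMT tumour ECs in 5 endothelial, 2 mural and fibroblast and 1 leukocyte marker, against 20.8% of tested genes. They were lower in 5 epithelial, 1 endothelial and 1 mural and fibroblast marker, where 24.6% of tested genes were lower. Against normal ECs, implanted tumour ECs were higher in 3 endothelial, 2 epithelial and 2 mural and fibroblast markers, where 25% of tested genes were higher. They were lower in 5 mural and fibroblast, 2 epithelial, 2 leukocyte and 1 endothelial marker, where 23.6% were lower. Of 7 endothelial markers, 4 were thus lower in MMTV-PyMT than in normal ECs. In implanted tumour ECs 3 were higher and 1 lower than in normal ECs, and 5 higher and 1 lower than in MMTV-PyMT. The part of all these markers in the tissue differences was not tested. Under cGAMP, 0 of 9 leukocyte markers were called by limma in normal or MMTV-PyMT ECs (1 and 0 of 9 at an unadjusted p under 0.05). In normal ECs 1 endothelial, 1 epithelial and 1 mural and fibroblast marker were lower, where 18.2% of tested genes were lower. No marker was called by limma in MMTV-PyMT tumour ECs, where 4.57% of tested genes were lower. In implanted tumour ECs 2 of 9 leukocyte and 3 of 8 mural and fibroblast markers were higher, where 20.3% of tested genes were higher. There 1 epithelial and 1 endothelial marker were lower, against 18.8% of tested genes that were lower. Their part in the response was not tested. Without the second implanted cGAMP library, which had the high leukocyte marker sum, all 10 genes were still called in implanted tumour ECs, with changes from 0.44 for B2m to 2.41 for Nlrc5. Without the first normal cGAMP library, which had the highest Ptprc, 5 of 10 were called in normal ECs, Psmb8 was lost (0.41), and changes were, for example, 0.15 for H2-D1 and 1.96 for Tap1.

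The order of the groups was similar from gene to gene. Group means were lowest in MMTV-PyMT under PBS for 9 genes and highest in implanted tumours under cGAMP for all 10. For H2-D1 and B2m the order was MMTV-PyMT PBS, MMTV-PyMT cGAMP, normal PBS, normal cGAMP, implanted PBS and implanted cGAMP, and only the normal B2m groups overlapped. For H2-D1, MMTV-PyMT tumour ECs thus reached 479 ± 37.4 FPKM under cGAMP (SD, n = 3), below the 623 ± 33.1 of normal ECs under PBS. In Tap1, Tap2, Psmb8, Psmb9, Psmb10 and Nlrc5, MMTV-PyMT under cGAMP overlapped with normal ECs under cGAMP. For Nlrc5, MMTV-PyMT cGAMP, implanted PBS and normal cGAMP had means of 10.1 ± 3.23, 12.1 ± 1.29 and 12.2 ± 1.62 FPKM (SD, n = 3), and neighbours in this order overlapped.

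The factors known to act at class I promoters rose in part. Of 9 compared, 5 were higher and 2 lower in normal ECs, 6 higher in MMTV-PyMT, and 5 higher and 1 lower in implanted tumour ECs. Over all tested genes 13.7%, 7.42% and 20.3% were higher and 18.2%, 4.57% and 18.8% lower in the 3 tissues. Scaling by total reads gave 6 higher and 1 lower in MMTV-PyMT and 5 higher and 4 lower in implanted tumour ECs. That scaling moved the median of all tested genes by -0.11 and -0.23 there. Shares of all tested genes under it were not computed, so these counts have none beside them. Irf1, an interferon regulatory factor, rose in each tissue and reached 149 ± 10.6 FPKM in normal ECs, 134 ± 5.93 in MMTV-PyMT and 142 ± 22.4 in implanted tumour ECs (SD, n = 3), where PBS levels were 36.9 ± 1.53, 22.8 ± 4.80 and 48.3 ± 5.50. Its log2 changes were 1.98, 2.53 and 1.53. Irf2, another factor of that family, rose by 0.65, 1.44 and 1.72. The NF-kB subunit genes rose in each tissue too, Rela by 0.76, 0.58 and 1.03 and Nfkb1 by 0.31, 0.68 and 1.14. Nfkb1 in normal ECs was the closest of these to the threshold (limma adjusted p = 0.0443), and its call was lost with the replicate block (limma adjusted p = 0.0593), without any 1 normal library (0.29 to 0.36) and without some single tumour libraries. The other changes of Irf1, Irf2, Rela and Nfkb1 had a limma adjusted p of at most 0.000659. Of the X box complex, Rfx5 rose in each tissue (0.49, 0.41 and 1.21). Its partners did not: Rfxank fell in normal and implanted tumour ECs (log2 change -0.61 and -0.42, the latter not called in a fit of the implanted libraries alone), and Rfxap fell in normal ECs (-0.50).

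Class Ib heavy chains, relatives of H2-K1 and H2-D1 that also pair with B2m in most cases, were called higher in most cases. Of 13 in the table, 8 were called higher in normal ECs, 8 in MMTV-PyMT tumours and 11 in implanted tumours, against 13.7%, 7.42% and 20.3% of tested genes. The count in normal ECs was 5 without normal PBS replicate 1, cGAMP replicate 1 or cGAMP replicate 3, or with a mean FPKM of at least 5. None was called lower, except 1 in MMTV-PyMT tumours after scaling by total reads. H2-Q6 changed by 0.82, 0.98 and 1.43, from 67.2 ± 4.56 to 185 ± 36.5 FPKM in implanted tumour ECs (SD, n = 3). H2-T24 rose by 1.01 in MMTV-PyMT and 2.29 in implanted tumour ECs, while in normal ECs it changed by -0.31 and did not pass (limma adjusted p = 0.188), except in a fit of the normal libraries alone. H2-Q4 rose by 0.73, 0.94 and 1.03 in normal, MMTV-PyMT and implanted tumour ECs, and H2-Q7 by 0.63, 0.85 and 0.84. H2-T10 rose by 0.48, 0.94 and 1.33, and its call in normal ECs was lost without PBS replicate 1 (0.48) or 2 (0.41) or cGAMP replicate 1 (0.36). H2-M3 rose by 0.95 in MMTV-PyMT and 1.33 in implanted tumour ECs, and changed by 0.25 in normal ECs without passing (limma adjusted p = 0.276), except without normal cGAMP replicate 2 (0.45). These genes resemble each other in sequence, and some resemble H2-K1 and H2-D1, so reads may be split among them. Their calls may therefore not be separate from each other or from those of the classical heavy chains. How FVB reads matched the reference was not tested for these genes either.

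The partners in peptide loading did not move one way. Of 7 loading partners, 5 were lower in normal ECs, none was called by limma in MMTV-PyMT (3 at an unadjusted p under 0.05, and 0 by voom), and 2 were higher and 1 lower in implanted tumour ECs. Of all tested genes 18.2% were lower in normal ECs, and 20.3% were higher and 18.8% lower in implanted tumour ECs. Scaling by total reads moved the median of all tested genes by -0.11 in MMTV-PyMT and -0.23 in implanted tumour ECs. After it, 4 loading partners were lower in MMTV-PyMT, and 2 were higher and 5 lower in implanted tumour ECs. Shares of all tested genes under that scaling were not computed. Chaperones and enzymes of glycoprotein folding fell in normal ECs, with log2 changes of -0.38 for Calr, -0.37 for Ganab, -0.31 for Pdia3, -0.31 for Uggt1 and -0.24 for Canx. The call of Canx was lost without normal PBS replicate 3 or cGAMP replicate 1 or 3 (-0.20 to -0.22). Implanted tumour ECs showed a rise of Tapbpl, a tapasin relative that edits the bound peptides, from 11.7 ± 3.22 to 34.0 ± 1.69 FPKM (SD, n = 3; log2 change 1.50). Erap1, which trims peptides in the endoplasmic reticulum, rose there by 0.53, and Calr fell (log2 change -0.22), close to the threshold (limma adjusted p = 0.0447) and lost in a fit of the implanted libraries alone and without single libraries of all 3 tissues. Tapbpl changed by 0.48 in MMTV-PyMT tumour ECs and did not pass (limma adjusted p = 0.0557).

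Of 6 proteasome partners, 2 were higher in normal ECs, 1 in MMTV-PyMT and 3 in implanted tumour ECs, against 13.7%, 7.42% and 20.3% of tested genes. Scaling by total reads gave, in implanted tumour ECs, 2 higher and 2 lower, with no share of all tested genes computed under it. Psme2, a subunit of the PA28 activator, rose by 0.52 in MMTV-PyMT and 1.07 in implanted tumour ECs, and its partner Psme1 by 0.71 in implanted tumour ECs. Pomp, which helps to assemble the proteasome, rose by 0.30 in normal ECs. The constitutive subunit Psmb7 rose by 0.25 there, at the threshold (limma adjusted p = 0.0499), and the call was lost with the replicate block (limma adjusted p = 0.0680) and without most single libraries. Psmb5 changed by -0.38 in implanted tumour ECs and did not pass (limma adjusted p = 0.0613). It was called lower, at -0.56, without the library with the high leukocyte marker sum, after quantile normalization (-0.54) and after scaling by total reads (-0.67).

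The list named cytosolic peptidases held 7 tested genes, of which Lnpep encodes a membrane-bound aminopeptidase and not a cytosolic one. In normal ECs 1 was higher and 3 were lower. None was called by limma in MMTV-PyMT (2 at an unadjusted p under 0.05, and 2 by voom). In implanted tumour ECs 4 were higher, Lnpep among them. Of all tested genes 13.7% were higher and 18.2% lower in normal ECs, and 20.3% were higher in implanted tumour ECs. Scaling by total reads gave 2 lower in MMTV-PyMT, and 2 higher and 3 lower in implanted tumour ECs. No share of all tested genes was computed under that scaling. Lap3, a leucine aminopeptidase, rose from 36.4 ± 3.85 to 99.3 ± 12.5 FPKM in implanted tumour ECs (SD, n = 3; log2 change 1.42), and changed by 0.31 in MMTV-PyMT without passing (limma adjusted p = 0.104). Lnpep rose by 0.81 in implanted tumour ECs. Tpp2 rose by 0.43 in normal and 0.46 in implanted tumour ECs, the latter call lost after scaling by total reads (0.16). Thop1 and Npepps, which cleave peptides in the cytosol, fell in normal ECs, with log2 changes of -0.54 and -0.41.

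**Figure D4:**
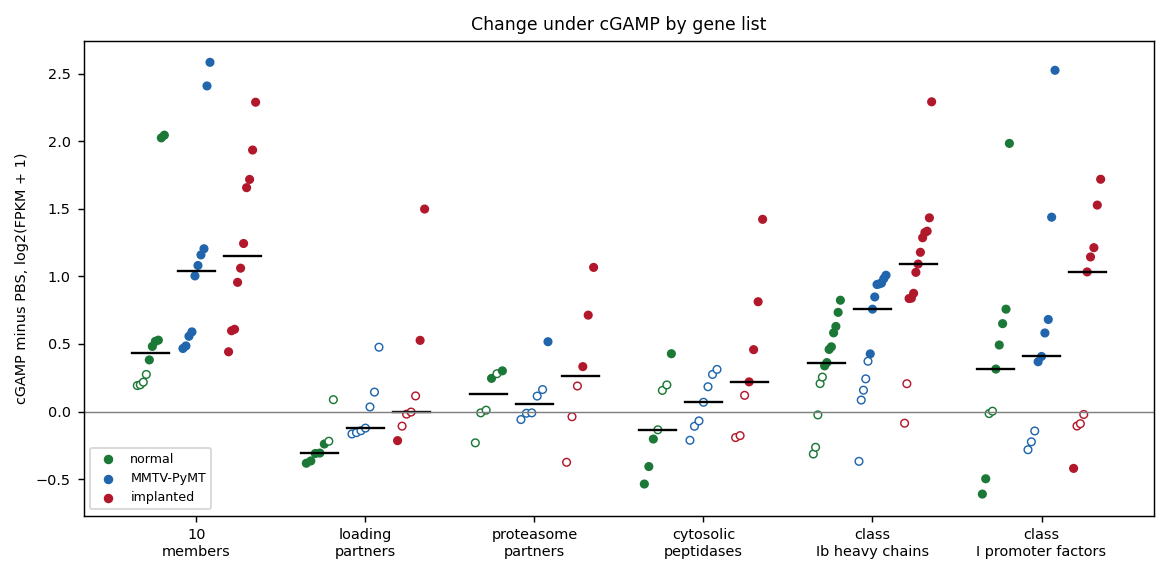
Change under cGAMP on the log2(FPKM + 1) scale for the 10 genes and 5 further lists, in normal (green), MMTV-PyMT (blue) and implanted tumour ECs (red). Each point is a gene, filled where the adjusted p was under 0.05 (limma), and bars are medians. The median of the loading partners was -0.31, -0.12 and 0.00 in the 3 tissues, and that of the class Ib heavy chains 0.36, 0.76 and 1.09.

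Profiles over the 18 libraries were compared by the root mean square distance of log2(FPKM + 1) values, each gene centred on its own mean. For H2-K1 the nearest genes outside the set were Gm8909 (0.159), Bst2 (0.219) and Tnc (0.232), against a median distance of 1.09 over all tested genes. For B2m they were Angpt2 (0.254), Gm8909 (0.268) and Bst2 (0.280). Bst2 encodes tetherin, an interferon-induced restriction factor, and Angpt2 encodes angiopoietin-2, a vascular growth factor made by ECs. Tap1 was nearest to Upp1 (0.218), Ifi44 (0.246) and Rnf213 (0.274), and Nlrc5 to Gbp3 (0.230), F830016B08Rik (0.296) and Rnf213 (0.297). Psmb9 was nearest to H2-Q4 (0.211), Uba7 (0.249) and Loxl4 (0.273). Within the set, Psmb9 lay at 0.151 from Psmb8, H2-K1 at 0.202 and B2m at 0.212 from H2-D1, and Tap1 at 0.384 from Nlrc5. These distances describe likeness over libraries that share tissues and treatments.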

How the data were processed

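Bulk RNA-seq of sorted ECs was available as 1 table with 16248 genes and 18 libraries, 3 in each of 6 groups. The deposited values are FPKM, which the authors made from reads checked with FastQC, aligned with STAR 2.7 (mm10) and counted by HTSeq, as the submitters' processing notes and the methods of the study give it. How FPKM were derived from counts, and whether counting used the strand of the directional libraries, was not given in the sources used here. The table lists no value at 0. Of the columns, 12 name tumour and treatment, and the other 6, which name a treatment and no tissue, were assigned to normal fat pads by elimination. Columns matched to no sample numbered 0.

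FPKM steps gave back whole reads (tolerance 0.05) for 16239 genes (99.9%), 15772 of them with the GENCODE M21 exon length, all 10 members included. Genes with at least 1 FPKM in at least 3 libraries (13983) were tested on log2(FPKM + 1) with limma 3.58.1 in R 4.3.3 (1 mean per group over all 18 libraries, eBayes with trend, two-sided, Benjamini-Hochberg over all tested genes). Because the unit was FPKM, a count test served only as an alternative (voom of limma on recovered reads). Ratios were tested by exact permutation of treatment within tissues (full enumeration in Python 3.11.15), with Benjamini-Hochberg adjustment over 5 ratios (SciPy 1.17.1). A further ratio, chosen after the data were seen, was given without a test. The scripts were tested on simulated data. Alternatives were another pseudocount, other filters, quantile normalization, scaling by total reads, voom, a fit of the compared groups only, a replicate block, and each library left out in turn.

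Named were all 10 members, of each further list the 3 genes with the largest absolute change in each cGAMP comparison, and for H2-K1, B2m, Tap1, Psmb9 and Nlrc5 the 3 nearest genes by profile. Named after their values were seen were Canx, Uggt1, Rfxap and Rfxank, and further values of genes so named. Members and lists were chosen with earlier results of these data known. Listed but not in the table, and not analysed here, were H2-T3, Nfya, Itgam and Nrdc. Of the promoter factors and motifs, 1 of each is not reported here. Over pairs of libraries of the same group, the chi-square per gene was 4.07 to 31.2 in recovered reads, so no pair was counted as 1 library. Per the methods, each group held 3 mice from 3 independent experiments. Which experiment a library belonged to was not given, so experiments could not be used as a block. Promoters are from RefSeq (GRCm38.p6).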

Additional observations from a re-analysis of the deposited data

Results flagged for a closer look

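Some changes under cGAMP differed between tissues by a test of the difference itself (limma, interaction contrast, adjusted p under 0.05). They concerned 4 of the 10 genes.

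Between implanted and normal ECs, the change was larger in implanted tumours by 1.46 on the log2(FPKM + 1) scale for Psmb10 (limma adjusted p = 5.70e-05), 1.19 for Tap2 (limma adjusted p = 0.000185), 0.97 for Psmb9 (limma adjusted p = 0.00410) and 0.68 for Tapbp (limma adjusted p = 0.00264). For each of these genes all 3 implanted cGAMP libraries were above all 3 implanted PBS libraries. That held for all 10 members and does not bear on a difference between tissues.

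Between implanted and MMTV-PyMT tumour ECs, the change was larger in implanted tumours by 0.65 for Psmb10, 0.64 for Tap2 and 0.47 for Tapbp (limma adjusted p = 0.0279, 0.0218 and 0.0347). Over the alternatives, 0 to 3 of these 3 calls were left.

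Between MMTV-PyMT and normal ECs, the change was larger in MMTV-PyMT by 0.93 for Psmb9 and 0.81 for Psmb10 (limma adjusted p = 0.0129 and 0.0129). For Psmb9 and Psmb10 the change in normal ECs alone was 0.27 and 0.19 and did not pass.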

How the results depend on the processing

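Over all alternatives, 2242 values of single members stayed on their side of the threshold, 51 lost and 19 gained a call, and 28 changed sign. The counts of members called under cGAMP were 5 to 6 in normal, 7 to 10 in MMTV-PyMT and 9 to 10 in implanted tumour ECs with each library left out in turn. For the differences between tissues these counts were 4 to 5 (implanted and normal), 0 to 3 (implanted and MMTV-PyMT) and 2 to 5 (MMTV-PyMT and normal, 5 without the first MMTV-PyMT cGAMP library). Quantile normalization left 2 calls between implanted and normal ECs and 1 between implanted and MMTV-PyMT, the latter Tap1 as lower (-0.94). Scaling by total reads and the fit of the compared groups each left 0 between implanted and MMTV-PyMT, and voom gave 5 between MMTV-PyMT and normal. Scaling by total reads moved the median of all tested genes by -0.23 in implanted and -0.11 in MMTV-PyMT tumour ECs under cGAMP, and by -0.14 and -0.12 between implanted and normal or MMTV-PyMT ECs under PBS.

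Signs changed in differences that had not passed. Between implanted and normal ECs these were H2-K1 (-0.32 after quantile normalization, -0.20 by total reads), B2m (-0.088 by total reads), Psmb8 (-0.048 after quantile normalization) and Nlrc5 (-0.022 at pseudocount 0.1, -0.27 after quantile normalization, -0.079 by total reads, -0.11 with voom). Between implanted and MMTV-PyMT they were H2-K1 (-0.37 after quantile normalization, -0.071 by total reads, and -0.0100 to 0.193 without single libraries), H2-D1 (-0.041 by total reads) and Psmb9 (-0.13 at pseudocount 0.1, -0.28 after quantile normalization, -0.17 by total reads, -0.22 with voom, and -0.15 to 0.159 without single libraries). Between MMTV-PyMT and normal it was H2-K1 (-0.13 by total reads, -0.077 to 0.126 without single libraries). The PBS difference of Tap1 between MMTV-PyMT and normal was -0.038 to 0.150 without single libraries, and Pomp in MMTV-PyMT was -0.013 by total reads. The cause was not tested.

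Within single tissues no ratio could pass, since 3 libraries against 3 cannot go below p = 0.1 in an exact permutation test. In normal, MMTV-PyMT and implanted tumour ECs the differences under cGAMP were 11.6, 21.9 and 14.5 points for the Psmb8 share, 3.95, 11.8 and 22.4 for the Psmb9 share, and -1.03, 17.9 and 17.3 for the Psmb10 share. They were 1.64, 1.42 and 0.22 for the log2 ratio of Tap1 to Tap2 and 1.88, 1.11 and 0.67 for Tap1 to Psmb9. For the log2 ratio of B2m to heavy chains they were -0.05, 0.085 and -0.16. Replicate numbers did not pair the libraries: correlations of same-numbered libraries ran from -0.29 to 0.26. With the replicate block the counts of members called under cGAMP were 6, 10 and 10, and no count for the members moved by over 1.5 times. For the further lists, the count of class Ib heavy chains called in normal ECs was 5 with a mean FPKM of at least 5 or without normal PBS replicate 1 or cGAMP replicate 1 or 3, against 8, and that of promoter factors 4 against 7 with the same filter. Proteasome partners in normal ECs fell from 2 to 1 without a filter, with the replicate block and without most single libraries, and to 0 without normal cGAMP replicate 2. Loading partners called in implanted tumour ECs were 6 after quantile normalization and 7 by total reads, against 3. In MMTV-PyMT tumour ECs loading partners were 0 to 4 and genes of the peptidase list 0 to 2 over the alternatives, against 0. Shares of all tested genes were not computed under the alternatives. Depth limits Nlrc5 most, with 73 reads in its lowest library.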
